A study of Mus musculus with 12 samples.

Results

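The genes of cholesterol synthesis and sterol control were followed in Ire1α null and control mouse livers, with and without tunicamycin. They were chosen from a list of 28 genes: the enzymes of the mevalonate and sterol routes, the SREBP2 transcription factor with its regulators, and carriers of sterol inside and into the cell. A probe set was present for 27 of the 28, and all 27 passed the filter on dim probe sets, among 14568 genes tested and 18193 genes with a probe set of their own. No probe set carried the symbol of Acat2, which is not analysed here.

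The arrays came from 4 groups of 3 biological replicates: Ire1α null livers with tunicamycin, null livers with vehicle, control livers with tunicamycin and control livers with vehicle. All mice were C57Bl/6J and 3 months old, and livers were collected 8 hours after 1 intraperitoneal injection of tunicamycin (TM, 2 µg per gram of body weight) or of the vehicle, 150 µM dextrose. The sample titles read Fe-CRE+ for null and Fe+CRE+ for control mice, so CRE+ is written on both genotypes. Neither the driver of Cre nor the deleted stretch of the gene is stated in the labels. Ern1, the gene of Ire1α, did not fall on its brightest probe set: null over control was 0.10 ± 0.24 with tunicamycin and -0.13 ± 0.24 with vehicle (log2 fold change ± SE), and where that probe set lies relative to the deleted stretch is not known here. Groups are therefore named by their labels.

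Cholesterol is built from acetyl-CoA by way of HMG-CoA and mevalonate, whose isoprene units are joined to farnesyl diphosphate, then to squalene, and closed into lanosterol, which is trimmed to cholesterol. The route is turned on by SREBP2, a transcription factor made as a precursor in the membrane of the endoplasmic reticulum (ER); SCAP carries it to the Golgi for cleavage when sterol is low, and the INSIG proteins hold SCAP back when sterol is high. Cleaved SREBP2 binds sterol regulatory elements, usually beside sites of the trimeric factor NF-Y, and the liver is a main site of this control. Tunicamycin blocks N-linked glycosylation at its step on dolichol, a lipid that is itself a product of the mevalonate route, and thereby loads the ER with unfolded protein, which Ire1α senses.

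Promoters are shown for 4 genes whose levels carry the comparisons below and for Hmgcs1, which held the single match to the sterol regulatory element. Each run is the 250 bases before the RefSeq gene start in GRCm38.p6, written 5′ to 3′ on the gene's strand, and capitals mark every match to the motifs searched. The NF-Y box CCAAT appears as ATTGG where it lies on the other strand. The match to the sterol regulatory element, TCACNCCAC, is the longer run of capitals in Hmgcs1, and that to the C/EBP-ATF element, TGATGNAA, is the run of capitals in Idi1 that begins with TT.
Mvd: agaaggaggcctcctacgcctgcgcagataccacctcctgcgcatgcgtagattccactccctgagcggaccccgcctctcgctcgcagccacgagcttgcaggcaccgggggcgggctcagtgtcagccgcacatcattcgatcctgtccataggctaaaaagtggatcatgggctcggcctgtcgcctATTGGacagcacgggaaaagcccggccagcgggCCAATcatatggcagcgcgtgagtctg
Idi1: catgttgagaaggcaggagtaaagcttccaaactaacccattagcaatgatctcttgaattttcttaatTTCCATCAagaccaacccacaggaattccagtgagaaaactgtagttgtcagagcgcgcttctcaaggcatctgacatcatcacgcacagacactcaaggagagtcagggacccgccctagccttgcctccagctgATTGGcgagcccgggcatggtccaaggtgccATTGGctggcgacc
Msmo1: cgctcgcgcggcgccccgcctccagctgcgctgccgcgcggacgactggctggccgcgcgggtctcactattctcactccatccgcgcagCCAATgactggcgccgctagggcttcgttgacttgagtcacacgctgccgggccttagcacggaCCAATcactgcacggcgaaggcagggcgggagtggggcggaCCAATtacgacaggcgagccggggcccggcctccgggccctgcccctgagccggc
Hmgcs1: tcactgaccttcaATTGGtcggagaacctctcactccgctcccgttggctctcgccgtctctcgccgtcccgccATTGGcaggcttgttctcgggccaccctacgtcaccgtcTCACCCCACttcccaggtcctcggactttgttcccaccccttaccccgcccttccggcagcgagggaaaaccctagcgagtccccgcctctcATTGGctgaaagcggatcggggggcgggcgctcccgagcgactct
Insig1: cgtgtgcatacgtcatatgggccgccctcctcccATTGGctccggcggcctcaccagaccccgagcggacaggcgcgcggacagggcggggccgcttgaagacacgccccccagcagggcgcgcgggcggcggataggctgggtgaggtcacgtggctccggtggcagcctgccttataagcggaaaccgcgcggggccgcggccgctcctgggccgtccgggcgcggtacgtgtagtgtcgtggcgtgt
These runs lie at chr8:122443423-122443672 (Mvd, minus strand), chr13:8885356-8885605 (Idi1, plus strand), chr8:64733579-64733828 (Msmo1, minus strand), chr13:119690101-119690350 (Hmgcs1, plus strand) and chr5:28071162-28071411 (Insig1, plus strand).

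The RefSeq table held a promoter for 23 of the 28 genes. Fdps, Fdft1, Sqle, Npc1 and Stard4 are not among them. A CCAAT box on either strand lay in at least 1 window of 21 of the 23 genes (91.3%), and in 21 of their 29 windows (72.4%). Among all 32851 windows, 33.8% held a box, as did 37.5% of 27025 genes. Acat2 and Scap were the 2 genes with no box in a window. The sterol regulatory element in the letters given above was matched in 1 of the 23 genes (4.35%), against 1.22% of all genes, and in 3.45% of the 29 windows, against 1.05% of all windows. The C/EBP-ATF element was matched in Idi1, Insig2 and Npc1l1 (13%), against 3.91% of all genes, and in 13.8% of the 29 windows, against 3.45% of all windows. The ER stress element, CCAAT followed by 9 free bases and CCACG, which contains the NF-Y box, was matched in 0 of the 23 genes, against 0.13% of all genes, and in 0 of their windows, against 0.113% of all windows. The windows of these genes were richer in G and C (median 62%) than all windows (52.4%). A match to these letters describes the window, and the arrays do not measure binding.

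**Figure D1:**
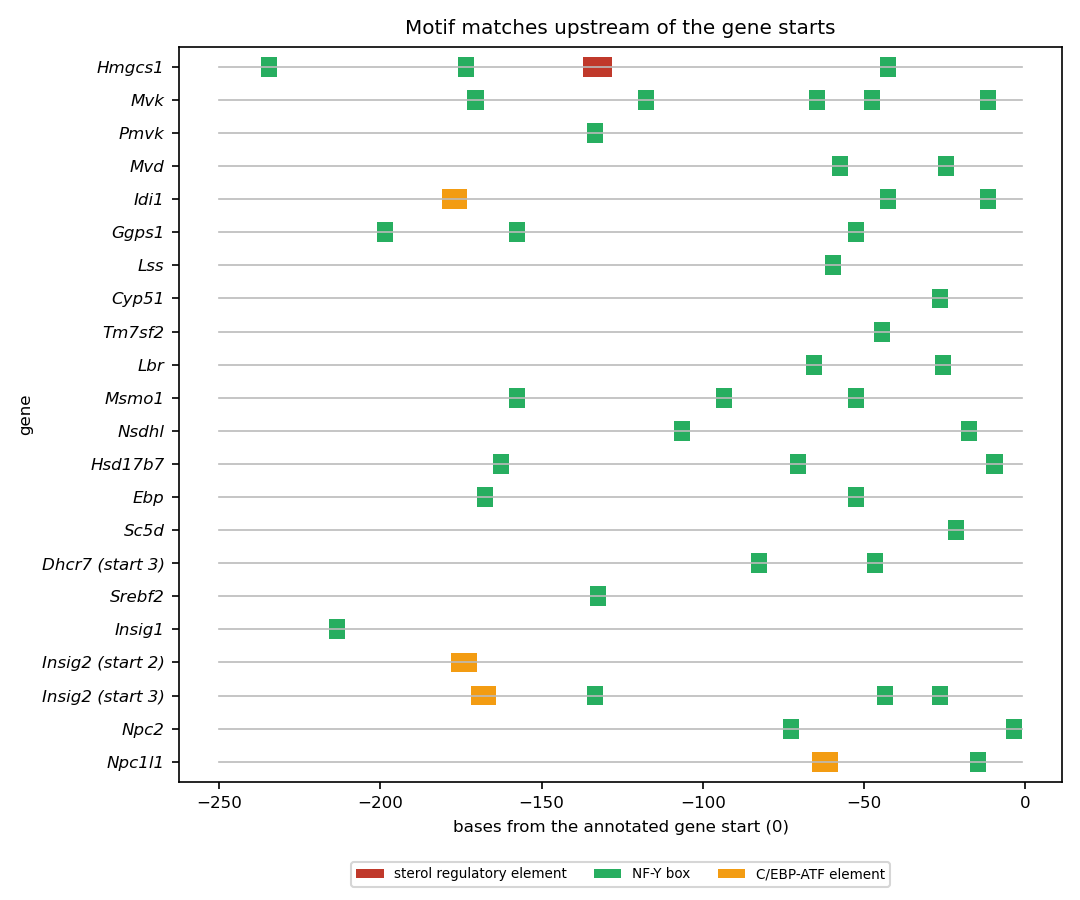
Motif matches in the 250 bases upstream of the annotated gene start of each gene with at least 1 match; the horizontal axis is the distance in bases from the start, green marks the NF-Y box, red the sterol regulatory element and orange the C/EBP-ATF element. The number of the annotated start is given for Dhcr7 and Insig2. Pmvk, which also has several annotated starts, is drawn at its first start without a number. Green boxes stand upstream of 21 genes and the red box upstream of Hmgcs1 alone.

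Each deposited value is an intensity on a linear scale, 1 for each probe set on each array, and these are printed below in the order of replicates 1, 2 and 3. Levels of different genes cannot be compared on this scale. Fold changes are log2 differences ± SE from a limma fit to log2(intensity + 16) after quantile normalization, with 3 arrays a group. A gene is said to rise or fall at a Benjamini-Hochberg adjusted p, over all 14568 genes, under 0.05. Whether groups overlap is stated on the normalized scale. In whole liver, fewer cells of a type and less RNA per cell cannot be told apart.

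The arrays separated by treatment on the first principal component (48.6% of the variance), and Hspa5, Ddit3 and Atf4, genes of the unfolded protein response, rose in both genotypes. Null tunicamycin replicate 2 stood apart: the summed intensity of 11 measured kidney markers was 32321 on it and between 272.9 and 456.9 on the other 11 arrays, while summed hepatocyte markers were 105340 to 111220 in its group. The results on null tunicamycin livers are therefore also given without it. Probes at both ends of the actin transcript give a measure of RNA quality, the 5' over 3' signal. In control livers this actin ratio was 0.296 to 0.389 with tunicamycin and 0.454 to 1.10 with vehicle, a difference of -0.429. An exact permutation test, two-sided, gave p = 0.1, which 3 arrays against 3 cannot go below. In null livers it was 0.205 to 0.434 with tunicamycin and 0.297 to 0.633 with vehicle. The same ratio for Gapdh was 0.370 to 0.435 in null and 0.523 to 0.577 in control livers with tunicamycin, a difference of -0.155 with the same exact permutation p of 0.1.

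With tunicamycin the route did not move as a block. In null livers 8 genes fell and 3 rose, and in control livers 10 fell and 2 rose. Of the 27, 6 fell in both genotypes (Mvk, Idi1, Fdft1, Msmo1, Nsdhl and Dhcr7) and 2 rose in both (Mvd and Npc1). Of all genes tested, 9.23% fell and 7.59% rose in null livers, and 13.3% fell and 11.6% rose in control livers. The median change of the 27 genes was -0.17 in null livers, against -0.07 for all genes, and -0.40 in control livers, against -0.11 for all genes. Both groups of 3 arrays were fully apart for 14 of the 27 in null livers (33.1% of all genes) and for 19 of the 27 in control livers (42.6% of all genes). Without null tunicamycin replicate 2, 7 of the 11 calls in null livers remained (6 fell, 1 rose), and the calls of Mvk, Mvd, Nsdhl and Insig2 ended. Adjusted for the actin ratio, the fit called 7 genes in control livers. Of the Kupffer cell markers, 7 of 7 lay lower with tunicamycin in null livers (median -0.50, 1 of them passing) and 5 of 7 in control livers (median -0.47, 0 passing), and their part in the sterol changes was not tested. With array medians centred or with the values as deposited, 5 fell and 4 rose in null livers and 7 fell and 3 rose in control livers.

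**Figure D2:**
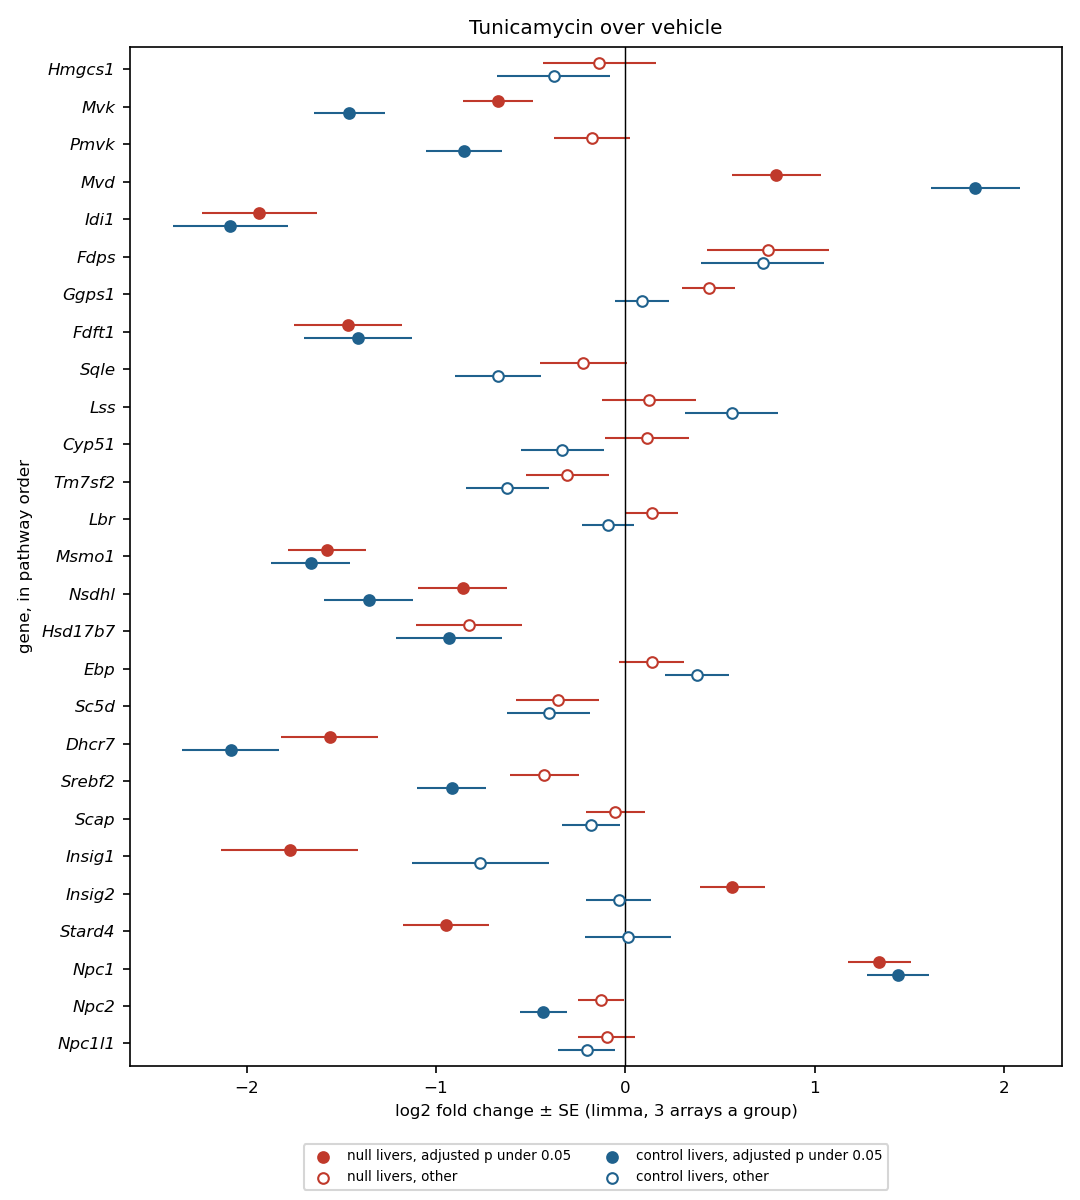
Tunicamycin over vehicle for the 27 measured genes in pathway order; the horizontal axis is the log2 fold change, with bars of 1 SE from the limma fit, red above for null livers and blue below for control livers, filled where the adjusted p was under 0.05. Idi1, Fdft1, Msmo1 and Dhcr7 lie below -1 in both genotypes, while Mvd and Npc1 lie right of 0 in both.

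The enzymes from acetyl-CoA to farnesyl diphosphate changed in opposite directions within a few steps. Hmgcs1, which makes HMG-CoA, had intensities of 6706, 2797 and 5186 in null livers with tunicamycin and 6584, 3283 and 4387 with vehicle. In control livers it had 5529.7, 7094 and 5119.5 with tunicamycin and 6775, 7818 and 5932 with vehicle. The groups overlapped, and the change was -0.14 ± 0.30 in null livers (adjusted p = 0.805, limma) and -0.38 ± 0.30 in control livers (adjusted p = 0.399), with 95% intervals of -0.79 to 0.52 in null and -1.03 to 0.27 in control livers.

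Mvk, the kinase that phosphorylates mevalonate, had intensities of 71.0, 58.8 and 65.4 with tunicamycin in null livers, against 94.2, 85.4 and 124 with vehicle. The control arrays read 78.6, 71.2 and 53.9 with tunicamycin, against 216, 160.3 and 212 with vehicle. All tunicamycin arrays lay below the vehicle arrays of their genotype. It fell in null livers (-0.67 ± 0.19, adjusted p = 0.0283, limma) and in control livers (-1.46 ± 0.19, adjusted p = 0.000142). A dimmer probe set of Mvk did not pass in either genotype, at 0.25 in null and -0.33 in control livers. The call in null livers ended without any 1 of null tunicamycin replicates 1, 2 and 3 and null vehicle replicates 1 and 3 (adjusted p 0.0502 to 0.107). It also ended when array medians were centred (-0.59, adjusted p = 0.0528), with values as deposited (-0.52, adjusted p = 0.0789), with the mean of probe sets (-0.21, adjusted p = 0.341), in a fit of the null groups alone (-0.67, adjusted p = 0.0698) and when the actin ratio entered the fit (-0.55, adjusted p = 0.082).

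Pmvk, the next kinase, had intensities of 310.2, 228 and 378 with tunicamycin in null livers, against 207, 281 and 408 with vehicle, and these overlapped. On the control arrays it had 344, 327 and 280.2 with tunicamycin, against 521, 471 and 525 with vehicle, with no overlap. It fell in control livers (-0.85 ± 0.20, adjusted p = 0.00827, limma), and in null livers the change was -0.17 ± 0.20 (adjusted p = 0.61). The control call was lost when array medians were centred (-0.67, adjusted p = 0.0543), with values as deposited (-0.65, adjusted p = 0.0654) and when the actin ratio entered the fit (-0.70, adjusted p = 0.134).

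Mvd, the decarboxylase that yields isopentenyl diphosphate, was the 1 synthesis enzyme that rose. Its intensities were 349, 462 and 430.5 with tunicamycin in null livers, against 195, 201 and 193 with vehicle. In control livers they were 1265, 1459.5 and 1632 with tunicamycin, against 295, 269 and 430.1 with vehicle. Every tunicamycin array lay above the vehicle arrays of its genotype, and every null tunicamycin array lay below every control tunicamycin array. Mvd rose in null livers (0.80 ± 0.23, adjusted p = 0.0375, limma) and in control livers (1.85 ± 0.23, adjusted p = 0.000143). The call in null livers ended without any 1 of null tunicamycin replicates 2 and 3, null vehicle replicates 1, 2 and 3 and control tunicamycin replicate 2 (adjusted p 0.0538 to 0.11). Nor did it hold in a fit of the null groups alone (0.80, adjusted p = 0.0537). A second probe set of Mvd rose by 1.57 in null livers (adjusted p = 7.92e-05) and by 2.49 in control livers (adjusted p = 1.23e-06), in the fit of all probe sets. In that fit the probe set described above did not pass in null livers (0.80, adjusted p = 0.0587).

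Idi1, the isomerase of the following step, moved the other way. Its intensities were 1303, 464 and 831 with tunicamycin in null livers, against 2699, 1785 and 3737 with vehicle. In control livers they were 1341, 1191 and 898 with tunicamycin, against 4528, 4428 and 3816 with vehicle. The groups did not overlap in either genotype. Idi1 fell in null livers (-1.93 ± 0.30, adjusted p = 0.00123, limma) and in control livers (-2.09 ± 0.30, adjusted p = 0.000377), and both calls held under all 26 alternative settings of the processing and the fit.

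Fdps, which joins the units into farnesyl diphosphate, did not pass with tunicamycin. Its intensities were 1355, 958 and 1873 with tunicamycin in null livers, against 403, 770.2 and 972 with vehicle, and 3669.8, 3000.3 and 2984 with tunicamycin in control livers, against 2488, 1061 and 1663 with vehicle. The change was 0.75 ± 0.32 in null livers (adjusted p = 0.14, limma), where the groups overlapped, and 0.73 ± 0.32 in control livers (adjusted p = 0.127), where they did not. The control change reached an adjusted p of 0.0486 (1.01) without control vehicle replicate 1. Ggps1, which lengthens farnesyl diphosphate for protein prenylation, had 171, 147 and 197 with tunicamycin in null livers, against 104, 93.2 and 115 with vehicle, with no overlap and a change of 0.44 ± 0.14 (adjusted p = 0.054), which passed under 6 of the 26 alternative settings. In control livers its change was 0.09 ± 0.14 (adjusted p = 0.702).

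**Figure D3:**
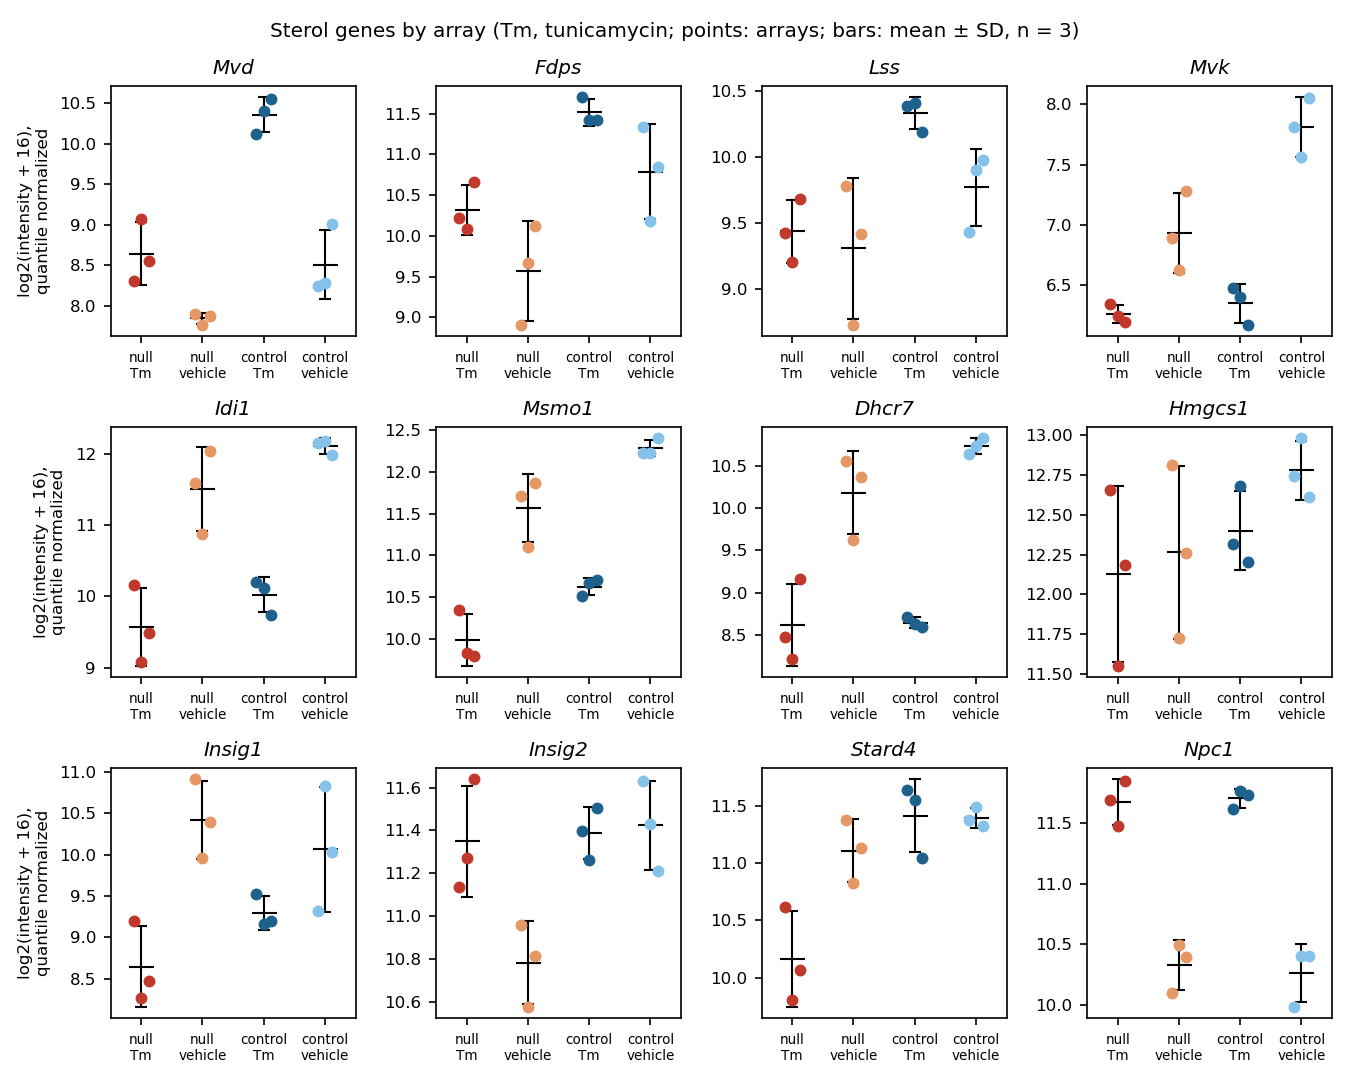
Quantile-normalized log2(intensity + 16) of 12 sterol genes on each of the 12 arrays; points are arrays, the bars give the mean and SD of 3 arrays, and each panel has its own vertical axis. Mvd is highest in control livers with tunicamycin, Idi1, Msmo1 and Dhcr7 are lowest with tunicamycin in both genotypes, and Npc1 is highest with tunicamycin in both.

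Of the 3 enzymes from farnesyl diphosphate to lanosterol, 1 fell in both genotypes. Fdft1, squalene synthase, had intensities of 1479, 559 and 799.8 with tunicamycin in null livers, against 2581, 1579.5 and 2187 with vehicle. Its control values were 1598, 1681 and 1044 with tunicamycin, against 2991, 3579 and 3180.1 with vehicle. The groups did not overlap, and Fdft1 fell in null livers (-1.46 ± 0.29, adjusted p = 0.00483, limma) and in control livers (-1.41 ± 0.29, adjusted p = 0.00353). A second bright probe set also fell, by 1.25 in null and 1.21 in control livers, while 2 dim ones did not pass in null livers (-0.29 and 0.00). With the actin ratio in the fit, the control value was -1.26 (adjusted p = 0.0674).

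Sqle, the oxygenase that epoxidises squalene, and Lss, the cyclase that makes lanosterol, did not pass. Sqle changed by a log2 value of -0.22 ± 0.23 in null livers (adjusted p = 0.564, limma) and -0.67 ± 0.23 in control livers (adjusted p = 0.0506). In control livers its intensities were 3006, 3281 and 2173 with tunicamycin, against 3482, 4074 and 3927 with vehicle, with no overlap, and it passed under 10 of the 26 alternative settings. Lss had 1524, 1469 and 1259.9 with tunicamycin in control livers, against 688, 870.0 and 874 with vehicle. It lay higher with tunicamycin on all 3 of these arrays (0.56 ± 0.25, adjusted p = 0.123), and passed when array medians were centred (0.78, adjusted p = 0.0427). Lss also passed there with values as deposited (0.80, adjusted p = 0.0389) and with the Gapdh ratio in the fit (0.61, adjusted p = 0.0193). In null livers its groups overlapped (0.13 ± 0.25, adjusted p = 0.778).

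Of the 9 enzymes that turn lanosterol into cholesterol, 3 fell in null livers and 4 in control livers, and 0 rose. Msmo1, which oxidises the methyl groups at carbon 4, and Dhcr7, a reductase of the last steps, fell most. Msmo1 had intensities of 1488, 793 and 1027 with tunicamycin in null livers, against 2903, 2102 and 3341 with vehicle. In livers of control mice it had 1646, 1762 and 1817 with tunicamycin, against 4733, 4615 and 5070.1 with vehicle. All tunicamycin arrays lay below all vehicle arrays, in both genotypes. Msmo1 fell in null livers (-1.58 ± 0.21, adjusted p = 0.000397, limma) and in control livers (-1.66 ± 0.21, adjusted p = 0.000128).

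Dhcr7 had intensities of 397, 257 and 657 with tunicamycin in null livers, against 1269, 750.1 and 1151 with vehicle. Control livers gave 475, 406 and 376 with tunicamycin, against 1554, 1579 and 1618 with vehicle. The control tunicamycin arrays lay close together and far below vehicle, and the null groups were also apart. Dhcr7 fell in null livers (-1.56 ± 0.26, adjusted p = 0.00163, limma) and in control livers (-2.09 ± 0.26, adjusted p = 0.000115). The calls of Msmo1 and Dhcr7 held under all 26 alternative settings in both genotypes. A dim probe set of Msmo1, taken on its own, did not pass (-0.24 with adjusted p = 0.455 in null livers and -0.34 with adjusted p = 0.225 in control livers).

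Nsdhl, the dehydrogenase that removes the oxidised methyl group, had intensities of 1333, 822 and 1633 with tunicamycin in null livers, against 2191, 1392 and 2201 with vehicle. In control livers it had 1369, 1238 and 914 with tunicamycin, against 2420.2, 2946 and 2392 with vehicle. The normalized groups were apart in both genotypes, although the deposited intensity of null tunicamycin replicate 3 exceeded that of null vehicle replicate 2. It fell in null livers (-0.86 ± 0.24, adjusted p = 0.0275, limma) and in control livers (-1.36 ± 0.24, adjusted p = 0.00125). The null call ended without any 1 of null tunicamycin replicates 1 and 2 and null vehicle replicates 1 and 3 (adjusted p 0.0598 to 0.106). It also ended when array medians were centred (-0.70, adjusted p = 0.097) and with values as deposited (-0.63, adjusted p = 0.14). Nor did it hold in a fit of the null groups alone (-0.86, adjusted p = 0.0797) or when the actin ratio entered the fit (-0.82, adjusted p = 0.0682).

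Hsd17b7, the ketone reductase of the same reaction cycle, had 1564, 997 and 1092 with tunicamycin in control livers, against 1559.6, 2550.1 and 1914 with vehicle. It fell in control livers (-0.93 ± 0.28, adjusted p = 0.0297, limma), and the null change was similar in size but did not pass (-0.83 ± 0.28, adjusted p = 0.0654). The control call ended without any 1 of control tunicamycin replicates 2 and 3 and control vehicle replicates 2 and 3 (adjusted p 0.0743 to 0.112). It also ended when array medians were centred (-0.73, adjusted p = 0.115), with values as deposited (-0.71, adjusted p = 0.132) and when the actin ratio entered the fit (-0.73, adjusted p = 0.27). Of the other 3 probe sets, 1 fell in control livers by 1.05 (adjusted p = 0.00441), and 2 dimmer ones gave -0.30 (adjusted p = 0.618 and 0.27). In null livers the dimmer ones gave 0.31 and -0.03, without passing.

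The other 5 enzymes of this stretch did not pass in either genotype. For Cyp51, the lanosterol demethylase, the change was 0.12 in null and -0.33 in control livers, and its other 2 probe sets gave -0.90 and -0.76 in null livers and -0.85 and -0.73 in control livers, also without passing. For the sterol reductase Tm7sf2 it was -0.31 in null and -0.62 in control livers. For Lbr, a sterol reductase that also anchors chromatin at the nuclear lamina, it was 0.14 in null and -0.09 in control livers. For the isomerase Ebp it was 0.14 in null and 0.38 in control livers, and for the desaturase Sc5d -0.36 in null and -0.40 in control livers. Tm7sf2 in control livers came closest to the threshold (adjusted p = 0.057, limma), its 3 tunicamycin arrays lay below its vehicle arrays, and it passed under 7 of the 26 alternative settings.

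Among the 4 regulators, Insig1 fell and Insig2 rose in null livers. Insig1, the ER anchor that is itself a target of SREBP2, had intensities of 662, 266 and 407 with tunicamycin in null livers, against 1648, 938 and 1171 with vehicle. On the control arrays it had 847, 602 and 595 with tunicamycin, against 642, 1688 and 909 with vehicle. The null groups were apart and the control groups overlapped, with the lowest control vehicle array among the tunicamycin values. Insig1 fell in null livers (-1.77 ± 0.36, adjusted p = 0.00609, limma), and its control change was -0.77 ± 0.36 (adjusted p = 0.148). Without control vehicle replicate 1 the control change was -1.14 (adjusted p = 0.0336).

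Insig2, the ER anchor whose liver transcript falls under insulin, had 2523, 2309 and 3549 with tunicamycin in null livers, against 1714, 1451 and 1578 with vehicle. Its control values were 2996, 2662 and 3155 with tunicamycin, against 3064, 2595 and 2166 with vehicle. The null groups were apart, with the 3 null vehicle arrays below all other arrays, and the control groups overlapped. It rose by 0.57 ± 0.17 in null livers (adjusted p = 0.0433, limma), and the control change was -0.04 ± 0.17. The null call was lost under 16 of the 26 alternative settings. Among these were the fits without 1 array each of null tunicamycin replicates 2 and 3, null vehicle replicates 1, 2 and 3, control tunicamycin replicates 1, 2 and 3 and control vehicle replicate 2 (adjusted p 0.0521 to 0.156). The other 2 probe sets of Insig2 gave 0.38 and 0.24 in null livers, without passing.

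Srebf2, which encodes SREBP2, had 307, 207 and 239 with tunicamycin in null livers, against 248, 379 and 241 with vehicle. In livers of control mice it had 182, 225 and 179 with tunicamycin, against 326, 318 and 374 with vehicle. It fell in control livers (-0.92 ± 0.18, adjusted p = 0.00321, limma), and the null change was -0.43 ± 0.18 (adjusted p = 0.14). With the actin ratio in the fit, the control value was -0.81 (adjusted p = 0.0657). Scap, the escort, did not pass, at -0.05 ± 0.15 in null livers (95% interval -0.39 to 0.28) and -0.18 ± 0.15 in control livers (-0.52 to 0.16).

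Of the 4 carriers, Npc1 moved most. Npc1, which moves cholesterol out of the lysosome, had 3619, 2645 and 4151 with tunicamycin in null livers, against 931, 1381 and 1173 with vehicle. Control livers gave 3481, 3815 and 3725 with tunicamycin, against 1008, 1255 and 1201 with vehicle. Every tunicamycin array lay above every vehicle array. Npc1 rose in null livers (1.34 ± 0.17, adjusted p = 0.000244, limma) and in control livers (1.44 ± 0.17, adjusted p = 7.06e-05), and both calls held under all 26 alternative settings.

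Npc2, the soluble partner that hands cholesterol to Npc1, had 1973, 1806 and 1931 with tunicamycin in control livers, against 2224, 2183 and 2181 with vehicle. It fell in control livers (-0.43 ± 0.12, adjusted p = 0.0225, limma), and the null change was -0.13 ± 0.12. The control call ended without any 1 of control tunicamycin replicates 2 and 3 and control vehicle replicates 2 and 3 (adjusted p 0.0527 to 0.0816). It also ended when array medians were centred (-0.23, adjusted p = 0.253) and with values as deposited (-0.21, adjusted p = 0.324). Nor did it hold with the mean of probe sets (-0.43, adjusted p = 0.0733) or when the actin ratio entered the fit (-0.34, adjusted p = 0.236). Other probe sets of Npc2, each on its own, gave -0.42 (adjusted p = 0.26), -0.44 (0.259) and 0.21 (0.507) in control livers. Npc1l1, the uptake protein of the apical membrane, was dim on all arrays and changed by -0.10 in null and -0.20 in control livers, without passing.

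Stard4, a soluble carrier of sterol between membranes, had 1782, 781 and 1249 with tunicamycin in null livers, against 2301, 1734 and 1970.2 with vehicle. The control arrays read 3513, 3299 and 2304 with tunicamycin, against 2545, 2705 and 2346 with vehicle. The null groups were apart and the control groups overlapped. Stard4 fell in null livers (-0.95 ± 0.23, adjusted p = 0.0144, limma), and the control change was 0.02 ± 0.23 (adjusted p = 0.97). The null call ended without null tunicamycin replicate 3 (-0.90, adjusted p = 0.0509) and without null vehicle replicate 1 (-0.81, adjusted p = 0.0632). It also ended when array medians were centred (-0.79, adjusted p = 0.0588) and with values as deposited (-0.72, adjusted p = 0.0926). Nor did it hold with the mean of probe sets (-0.63, adjusted p = 0.154) or in a fit of the null groups alone (-0.95, adjusted p = 0.0503). A second probe set fell by 0.91 in null livers (adjusted p = 0.0439), and another gave -0.03.

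Between genotypes under tunicamycin, 2 of the 27 genes were lower in null than in control livers and 0 were higher, where 3.23% of all genes were lower and 0.755% higher. These were Mvd (-1.72 ± 0.23, adjusted p = 0.00149, limma) and Stard4 (-1.25 ± 0.23, adjusted p = 0.00832). In the intensities given above, the 3 null tunicamycin arrays lay below the 3 control tunicamycin arrays for both genes. The second Mvd probe set gave -1.86 and the second Stard4 probe set -1.43, both with an adjusted p under 0.05. The remaining Stard4 probe set gave -1.22 and did not pass (adjusted p = 0.482). The Mvd call held under all 26 alternative settings. That of Stard4 was lost without control tunicamycin replicate 2 (-1.18, adjusted p = 0.0509) and in a fit of the 2 tunicamycin groups alone (-1.25, adjusted p = 0.057). Both calls remained without null tunicamycin replicate 2. Both also remained when the Gapdh ratio, which did not overlap between these groups, entered the fit. All 7 Kupffer cell markers were lower in null livers here too (median -0.68, 0 passing), with summed intensities of 3113 to 7265 in null and 5998 to 7766 in control livers. The part of these markers in the differences was not tested.

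Fdps and Lss came next, with no overlap between the genotypes under tunicamycin. The difference for Fdps was -1.20 ± 0.32 (adjusted p = 0.0657, limma) and for Lss -0.90 ± 0.25 (adjusted p = 0.0726). Fdps passed without null vehicle replicate 1 (adjusted p = 0.0382), without control vehicle replicate 1 (0.0476) and without control vehicle replicate 2 (0.046). It also passed in a fit of the 2 tunicamycin groups alone (0.0246) and with array quality weights (0.0299). Lss passed without null vehicle replicate 1 (0.0461), without null vehicle replicate 2 (0.026) and with the Gapdh ratio in the fit (-1.16, adjusted p = 0.00456). Lss also passed in a fit of the 2 tunicamycin groups alone (0.04), with array quality weights (0.0203) and when array medians were centred (0.0472). In all, 6 genes lay lower without overlap, against 11.5% of all genes, and Ggps1 alone lay higher without overlap, against 10.2% of all genes. The median difference of the 27 genes was -0.09, against 0.02 for all genes. For Dhcr7, which fell in both genotypes, it was -0.02 (95% interval -0.58 to 0.54), and for Npc1, which rose in both, -0.03 (-0.39 to 0.33).

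With vehicle, 0 of the 27 genes passed between null and control livers, as did 0% of all genes (limma, adjusted p under 0.05). The unadjusted p was under 0.05 for 9 of the 27 and for 597 of the 14568. The fold changes lay mostly on 1 side: 25 of the 27 were negative, against 50.3% of all genes, and their median was -0.46, against 0.00 for all genes. The 2 exceptions were Insig1 (0.36) and Npc1 (0.07). All 18 measured enzymes were negative. For 13 of the 27 every null array lay below every control array, against 4.41% of all genes, and for 0 every null array lay above, against 3.75%. The 27 values come from the same 6 arrays and are not independent of each other. Under the alternative settings 23 to 26 of the 27 were negative.

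The largest of these differences was that of Fdps, with 403, 770.2 and 972 in null vehicle livers, against 2488, 1061 and 1663 in control vehicle livers (-1.22 ± 0.32, unadjusted p = 0.00266, limma adjusted p = 0.988). Mvk had 94.2, 85.4 and 124 in null vehicle livers, against 216, 160.3 and 212 in control vehicle livers (-0.88 ± 0.19, unadjusted p = 0.000497), the 6th smallest unadjusted p among all genes. Pmvk had 207, 281 and 408 in null vehicle livers, against 521, 471 and 525 in control vehicle livers (-0.76 ± 0.20, unadjusted p = 0.00251). In each of these 3 genes the genotypes did not overlap. Of the 100 genes with the smallest unadjusted p in this comparison, 7 were among the 27: Mvk, Pmvk, Fdps, Insig2, Msmo1, Cyp51 and Sqle. Msmo1 differed by -0.73 ± 0.21, Cyp51 by -0.72 ± 0.22, Sqle by -0.71 ± 0.23 and Insig2 by -0.64 ± 0.17, and none of them passed.

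The size of the vehicle difference rested in part on 1 array. The median of the 18 enzymes, set against the mean of the control vehicle arrays, was -1.04 on null vehicle replicate 2, and -0.47 and -0.36 on null vehicle replicates 1 and 3. On control vehicle arrays it was -0.06, 0.05 and 0.02. On replicate 2, 15 of the 18 enzymes lay below their null vehicle mean. This array also had an actin ratio of 0.297, against 0.571 and 0.633 on null vehicle replicates 1 and 3. Its Gapdh ratio was 0.642, against 0.1805 and 0.293 on those 2 arrays. The part of these ratios in its low enzyme level was not tested. Without that array 24 of the 27 genes remained negative, and their median was -0.29. The 3 null tunicamycin arrays had medians of -0.77, -1.15 and -0.74, of which -1.15 belongs to the array with kidney transcripts, and the control tunicamycin arrays had -0.60, -0.47 and -0.79. Of the Kupffer cell markers, 7 of 7 were lower in null vehicle than in control vehicle livers (median -0.54, 0 passing). Their summed intensity was 3279 to 7016 in null vehicle livers and 4960.4 to 9556 in control vehicle livers. Hepatocyte markers differed by a median of -0.01. The part of these markers in the sterol differences was not tested.

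**Figure D4:**
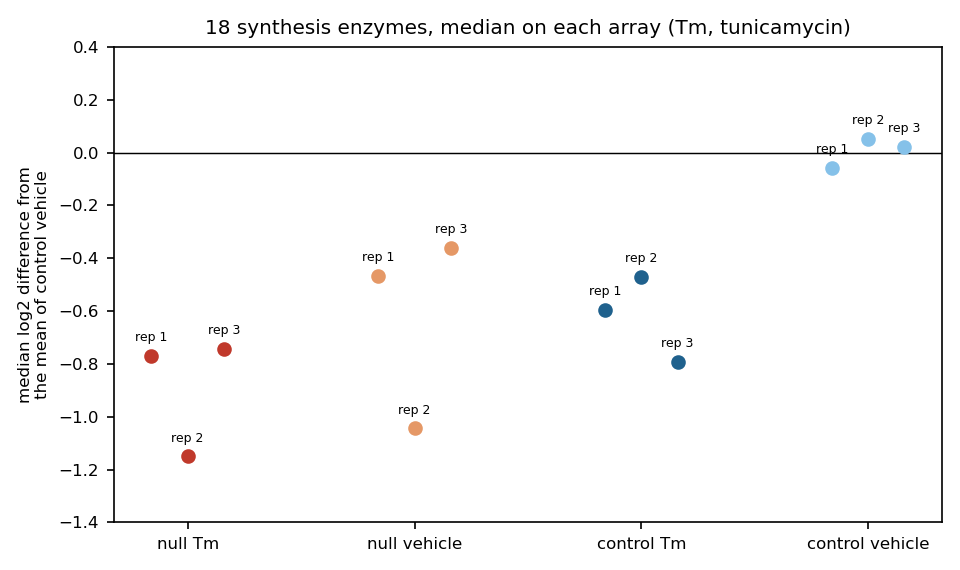
Median, over 18 synthesis enzymes, of the log2 difference from the control vehicle mean, for each array by group; labels give the replicate number. The 3 null vehicle arrays lie between -1.04 and -0.36 and the 3 control vehicle arrays between -0.06 and 0.05.

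**Figure D5:**
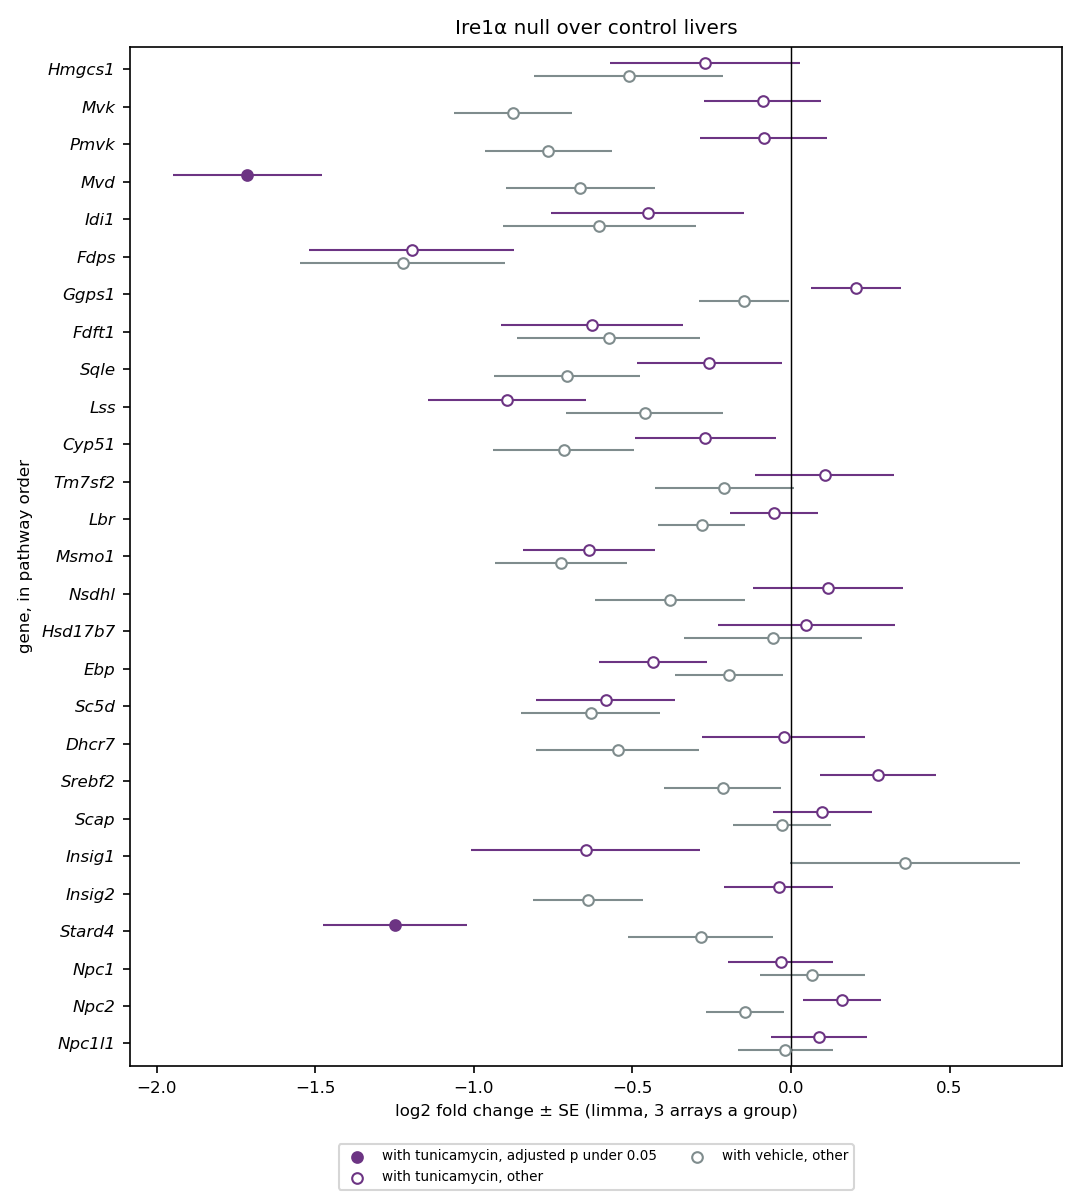
Null over control livers for the 27 measured genes in pathway order; the horizontal axis is the log2 fold change with bars of 1 SE, purple above for tunicamycin and grey below for vehicle, filled where the adjusted p was under 0.05. Mvd and Stard4 are filled with tunicamycin, and with vehicle 25 points lie left of 0 with none filled.

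Whether tunicamycin acted differently in the 2 genotypes was tested with the interaction, for which 0 of the 27 genes passed, against 0.837% of all genes (limma). At an unadjusted p under 0.05 there were 5. Mvd (-1.05 ± 0.33, adjusted p = 0.271) and Stard4 (-0.96 ± 0.32, adjusted p = 0.323) were on the side of a lower change in null livers. Mvk (0.79 ± 0.26), Pmvk (0.68 ± 0.28) and Insig2 (0.60 ± 0.24) were on the side of a higher one, with adjusted p of 0.32, 0.515 and 0.492. The calls listed above for 1 genotype and not the other, such as those of Insig1, Srebf2 and Stard4, are therefore not shown to differ between genotypes. The tunicamycin and genotype comparisons share arrays, so their values are given side by side and not correlated.

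Other genes of sterol handling were counted from lists, to be read beside the shares of all genes given above. Of 8 measured genes of SREBP processing and ER sterol control, Osbp, which exchanges sterol between ER and Golgi, and Erlin1, an ER membrane protein that holds back SREBP activation, rose in both genotypes. Osbp rose in null livers (1.20 ± 0.13, adjusted p = 8.6e-05, limma) and in control livers (1.86 ± 0.13, adjusted p = 1.76e-06). It was lower in null than in control livers with tunicamycin (-0.82 ± 0.13, adjusted p = 0.00313). Erlin1 rose by 1.35 in null and 0.90 in control livers. Of the ER ubiquitin ligases on the list, Rnf145 fell in null livers (-0.70) and Rnf139 in control livers (-0.87). The median of the 8 was 0.26 in null and 0.16 in control livers. With null tunicamycin replicate 2 left out, Osbp, Erlin1 and Rnf145 were still called in null livers (2 rose and 1 fell). Osbp was also still called lower in null than in control livers with tunicamycin.

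Of 10 measured genes of sterol transport and storage, 3 rose and 1 fell in null livers and 2 rose and 1 fell in control livers. The carrier Osbpl2 rose by 1.13 in null and 1.49 in control livers, and Gramd1c, of the family that moves sterol from the plasma membrane to the ER, by 1.21 in null and 1.53 in control livers. Its relative Gramd1a fell in both (-0.66 in null and -0.48 in control livers). Nceh1, a cholesterol ester hydrolase, was higher in null than in control livers with tunicamycin (1.26 ± 0.27, adjusted p = 0.0193, limma). Without null tunicamycin replicate 2, 2 rose and 1 fell in null livers, and the call of Nceh1 against vehicle ended.

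Another list joined genes of the sterol receptor LXR to those of sterol export, so not all of it are exporters. Its 8 genes were Abca1, Abcg1, Abcg5, Abcg8, Nr1h2, Nr1h3, Mylip and Lpcat3. Of the 7 measured, 2 fell in null and 3 in control livers and 0 rose, with medians of -0.17 in null and -0.37 in control livers. The bile transporter pair Abcg5 (-1.61 in null and -2.38 in control livers) and Abcg8 (-1.68 in null and -2.45 in control livers) fell in both genotypes, and Abca1, which loads lipid onto apolipoprotein A-I, fell in control livers (-0.61). Of 5 genes that turn sterol into bile acids, Hsd3b7 fell in both genotypes (-0.75 in null and -0.64 in control livers). Without null tunicamycin replicate 2 these counts in null livers stayed at 2 and 1. Abcg5 was then called higher in null than in control livers with tunicamycin, where 0 of the 7 LXR and export genes passed with all arrays.

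Of 11 measured genes of the branches that use mevalonate products, 2 rose and 1 fell in null livers and 3 rose and 2 fell in control livers. Nus1, a subunit of the enzyme that makes the dolichol chain, rose by 0.83 in null and 1.37 in control livers. Rce1, a protease of prenylated proteins, rose by 0.53 in null and 0.43 in control livers, and Pdss2, of ubiquinone side chain synthesis, fell in both (-0.79 in null and -0.81 in control livers). Fntb, the beta subunit of protein farnesyltransferase, rose in control livers (1.73 ± 0.20, adjusted p = 8.1e-05, limma) and was lower in null than in control livers with tunicamycin (-1.03 ± 0.20, adjusted p = 0.0135). With null tunicamycin replicate 2 left out, 2 still rose and 1 fell in null livers. Both Nus1 and Fntb were then called lower in null than in control livers with tunicamycin.

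On the SREBP1 and fatty acid list, 5 of 12 genes fell in each genotype and 0 rose, with medians of -0.50 in null and -0.48 in control livers. Srebf1, which encodes SREBP1, fell in null livers (-2.69 ± 0.24, adjusted p = 2.52e-05, limma) and in control livers (-3.22 ± 0.24, adjusted p = 2.79e-06). Acss2, which makes acetyl-CoA from acetate, fell in both (-0.88 in null and -1.41 in control livers). Fasn, fatty acid synthase, fell in null livers (-0.75) and the desaturase Fads1 in control livers (-0.81). With vehicle, 12 of the 12 were lower in null than in control livers (median -0.28), with 0 passing. With tunicamycin, Fasn was lower in null than in control livers (-0.73 ± 0.17, adjusted p = 0.0391, limma), the 1 call of the 12 there. Without null tunicamycin replicate 2 that call ended, and 3 of the 12 fell in null livers.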

How the data were processed

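RNA was measured on 12 Affymetrix arrays, each hybridised with liver RNA of 1 animal (6 µg of total RNA, per the labels' protocols). The deposited values are 1 summarised intensity per probe set and array on a linear scale; how they were summarised and scaled is not given in these sources. Of 45101 probe sets, 64 were controls, 34945 had 1 gene symbol in the platform annotation, 932 several and 9160 none, and those with several or none were left out. Here 16 was added to each deposited intensity, log2 taken, arrays quantile normalized and the 30% dimmest probe sets left out by their mean over all arrays. The probe set with the highest mean normalized log2 value stood for its gene (for Mvd this is not the one with the highest mean intensity), which left 14568 genes. Differences were fitted with limma 3.58.1 (R 4.3.3, data.table package version 1.17.8), lmFit and eBayes, over all 4 groups with 8 residual degrees of freedom, and p-values were adjusted by Benjamini-Hochberg over all genes. Errors and p-values rest on biological replicates, and 3 arrays a group limit the precision. The fit was tested on simulated data with 14568 genes for tunicamycin in control livers: 48 of 100 genes changed 2-fold and 91 of 100 changed 4-fold were recovered, with 8 false calls. Only these genes were changed there, with noise drawn independently for each gene, while 3636 genes were called in the data. The adjusted p depends on how many genes change, so this recovery does not describe the real comparison. All 27 measured genes are described, and of the other lists up to 3 called genes with the smallest p in each comparison. The genes and lists were chosen with earlier results of these data known, the kidney markers among them. Promoter sequences are RefSeq's, searched on both strands with Python 3.11.15, and figures were drawn with matplotlib 3.10.9.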

Additional observations from a re-analysis of the deposited data

How the results depend on the processing

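No label links replicate numbers across groups. Same-numbered arrays had correlations of their deviations between -0.41 and 0.49. Differently numbered arrays were not compared, so these values cannot decide whether samples were paired. With the replicate block, 10 genes of the module were called for tunicamycin in null livers, 12 in control livers, 0 and 2 between genotypes with vehicle and tunicamycin, and 0 for the interaction. For tunicamycin in null livers the count was 6 in a fit of only the groups compared and 6 to 11 when 1 replicate was left out, with the 6 reached without null vehicle replicate 1. The median change there was 0.011 with values as deposited, where that of all genes was 0.08. In control livers 7 were called with the actin ratio as covariate. The median in control livers was -0.24 with array medians centred, -0.21 as deposited and -0.53 with the mean of probe sets, while the median of all genes was -0.01 and 0.01 under the first 2 scalings and -0.11 in the main one. Between genotypes with tunicamycin 4 were called with array quality weights, and 1 (without control tunicamycin replicate 2) to 4 (without null vehicle replicate 1) with 1 array left out; the median was -0.23 without probe sets marked as shared between transcripts. With vehicle the median ranged from -0.52 to -0.29, and for the interaction from 0.079 to 0.31, when 1 array was left out. Single dim probe sets turned the sign of Mvk in null livers (0.25) and of Npc2 in control livers (0.21). Of the results on single genes under the alternatives, 3646 kept their side of the threshold, 85 lost a call, 45 gained one and 2 reversed. A reversal was counted only where the main or the alternative fit called the gene. The 3646 therefore include changes of sign between values that did not pass. They also include every result that passed in neither fit, such as all those with vehicle and for the interaction. The 3646 is thus no measure of how stable the calls were. For tunicamycin in null livers, Insig2 lost its call under 16 of 26 settings, Mvk under 10, Nsdhl under 8, Mvd under 7 and Stard4 under 6. The other calls there were lost under 0. Where no cause is shown by the setting itself, the cause was not tested. A fit of only the groups compared does not apply to the interaction. The added 16 understates the fold changes of dim probe sets such as that of Npc1l1.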
